A study of Homo sapiens with 5 samples.

Results

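The MAX network is the family of basic helix-loop-helix leucine zipper proteins built around MAX, and its mRNAs were examined here in RH4 cells, a line of human alveolar rhabdomyosarcoma. Its members were taken by gene symbol: MYC, MYCN, MAX, MNT, MXD1, MXD3, MXD4, MXI1, MLX and MGA. All 10 were found among the 13822 genes of the expression table, and all 10 passed the filter on low values. The study asked which transcripts differ when a circular RNA made from the VAMP3 gene, circVAMP3, is knocked down. Poly-A+ RNA was sequenced from 3 libraries of cells given the control siRNA si-SCR and 2 libraries of cells given si-circVAMP3, described by the study as biological replicates. Cells of both groups were transfected with siRNA at 30 nM, with a medium change at 24 h and 24 h of further culture. The study's methods name Dharmafect-1 or Lipofectamine RNAiMAX as the reagent. There was no untransfected group, and a single cell line stands for the tumour.

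MYC and MYCN activate transcription when paired with MAX, and these pairs bind a short DNA element called the E-box. The MXD proteins, MXI1 and MNT also pair with MAX, occupy the same element and recruit the SIN3-HDAC corepressor, so they oppose MYC. MLX is a MAX-like partner for some MXD proteins, for MNT and for the glucose-sensing Mondo proteins, while MGA pairs with MAX inside a Polycomb complex. In alveolar rhabdomyosarcoma MYCN is a known target of the PAX3-FOXO1 fusion protein.

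The sequence of si-circVAMP3 is shown because it joins stretches that lie apart in VAMP3 mRNA and meet at the junction of the circle. The small letters at its start match bases 364 to 371 of a VAMP3 reference transcript (GENCODE) and the capitals, with the base before them, match bases 160 to 171, an upstream stretch; the final uu is the overhang.
si-circVAMP3: caucaucgGUGGUGGACAUuu
The span from the upstream match to the downstream match is 211 bases.

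VAMP3, the host gene, encodes a vesicle membrane protein and lies at chr1:7771296-7781432 on the plus strand (GRCh38). Its level was 36.4, 35.4 and 37.4 FPKM (fragments per kilobase of transcript, scaled to library size) in si-SCR libraries 1, 2 and 3. In si-circVAMP3 libraries 1 and 2 it was 29.4 and 30.2 FPKM. The groups did not overlap, and VAMP3 was lower after si-circVAMP3, with a log2 difference of −0.29 on the log2(FPKM + 0.5) scale used throughout and a 95% confidence interval of −0.39 to −0.18 (limma with Benjamini-Hochberg adjustment over all genes tested, adjusted p = 0.00502). Without si-circVAMP3 replicate 1 the adjusted p was 0.0512 (range over the alternatives 0.00285 to 0.0512). These values are for the linear mRNA: poly-A+ libraries do not measure the circle, so they do not check how far circVAMP3 was reduced. In bulk RNA, fewer cells of a kind and less RNA per cell cannot be told apart.

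Markers of the cell type were checked next. Of 10 rhabdomyosarcoma and myoblast markers 9 were in the table, led by the muscle filament gene DES at 291.5, 291.0 and 249.1 FPKM in si-SCR and 265.7 and 248.1 FPKM in si-circVAMP3. Summed over the list, the level was 1095, 1082 and 939 FPKM in si-SCR and 883 and 892 FPKM in si-circVAMP3. None of the 9 was called higher (limma adjusted p below 0.05) and 4 (44.4%) were called lower, next to 14.4% and 15.8% of all genes tested: MYOG, CHRNG, TNNT2 and CHRND. MYF5 had no row. MYOG, a muscle differentiation factor, stood at 175, 179 and 149 FPKM in si-SCR and 101 and 96.6 FPKM in si-circVAMP3, a log2 difference of −0.76 (limma, adjusted p = 0.00157). MYOD1, the factor that specifies muscle cells, stood at 115.0, 105.5 and 84.3 FPKM in si-SCR and 105.6 and 126.6 FPKM in si-circVAMP3, which overlapped, and its log2 difference of 0.20 did not pass (limma, adjusted p = 0.316; named after its values were seen). Of 5 fibroblast markers COL3A1 was the most abundant, at 33.6, 31.1 and 31.5 FPKM against 29.5 and 27.1 FPKM, while COL1A1 did not exceed 0.233 FPKM in any library, LUM had no row and 0 were called. The fibroblast list summed to 35.5, 32.8 and 33.3 FPKM in si-SCR and 31.1 and 28.6 FPKM in si-circVAMP3. None of the epithelial, immune or neuroblast markers had a row in the table, and of the endothelial markers PECAM1 alone did, at 0.0777 to 0.153 FPKM. The part of these shifts in the results on the network was not tested.

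Library sizes read back from the FPKM values came to 26672263, 24991642 and 24946722 fragments for si-SCR and 18533740 and 28798387 for si-circVAMP3. Si-circVAMP3 library 1 is the shallowest. On the principal components of all genes tested the groups separated along the leading axis, which held 67% of the variance, and the next axis, with 18%, spread si-SCR libraries 1 and 3 apart. Each gene was called higher or lower at a limma adjusted p below 0.05.

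Of the 10 members, 0 were called higher and 1 was called lower, MXI1. Over all 12423 genes tested, 14.4% were called higher, 15.8% lower and 30.2% in either direction. An unadjusted limma p below 0.05 was found for 4 members (MAX, MXD1, MXD3 and MXI1), next to 42.6% of all genes tested. The FPKM values of the groups did not overlap for 7 members, against 58.4% of all genes tested. MYC, MAX, MXD1 and MLX were the 4 that lay higher and MXD3, MXD4 and MXI1 the 3 that lay lower, while MYCN, MNT and MGA overlapped. The median log2 difference over the members was −0.008, and over all genes 0.0065. When limma voom was run on fragments recovered from the FPKM values, 1 member was called higher, MAX, and 2 lower, MXD3 and MXI1, next to 33.5% of all genes in either direction. Leaving out libraries moved the count too: without si-SCR replicate 3, 1 was called higher, MXD1, and 2 lower, MXD3 and MXI1, next to 32.3% of all genes, and without si-circVAMP3 replicate 2 none was called in either direction, next to 10.0%. With a fold threshold of 0.58 (log2) as well, 0 were called on the log2(FPKM + 0.5) scale, where the added 0.5 lessens differences of low genes; MXI1, at −0.57 there, was past 0.58 with a pseudocount of 0.1 (−0.71, adjusted p = 0.00761) and with limma voom (−0.79, adjusted p = 0.00266).

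**Figure D1:**
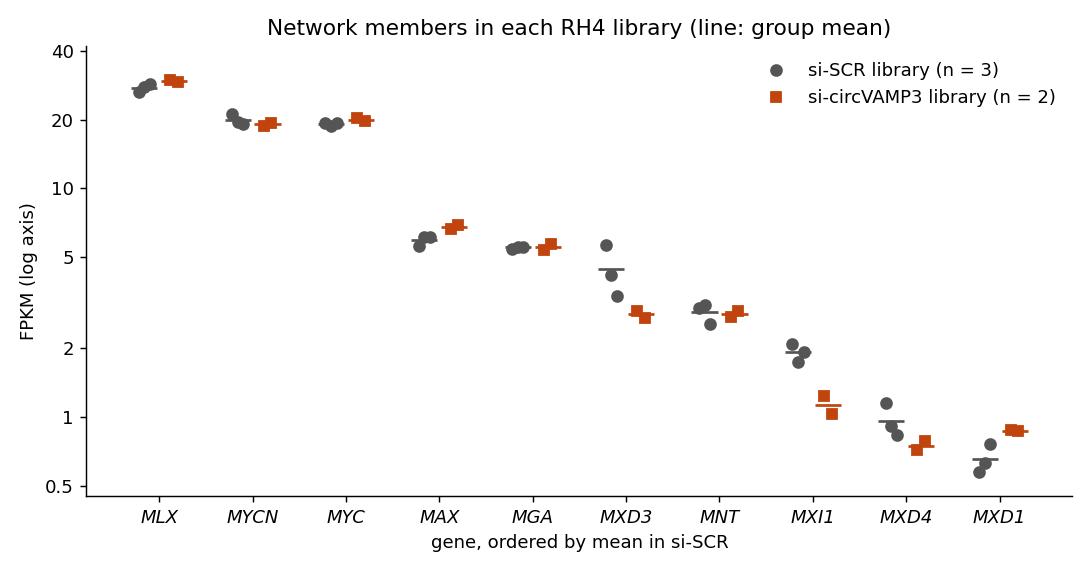
FPKM of each network member (log axis) in the 3 si-SCR libraries (circles) and the 2 si-circVAMP3 libraries (squares), with a line at each group mean. MLX, MYCN and MYC stand well above the rest. MXD1 is the lowest in si-SCR and MXD4 in si-circVAMP3. Both si-circVAMP3 values of MXI1, 1.23 and 1.03, lie below its 3 controls.

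MYC and MYCN are the activating members. MYC lies at chr8:127735434-127742951 on the plus strand (GRCh38), and its antisense neighbour CASC11 was kept apart by strand-specific counting. Its level was 19.3, 18.7 and 19.3 FPKM in si-SCR and 20.2 and 19.7 FPKM in si-circVAMP3. All values fell within a narrow band, the si-circVAMP3 pair just above the 3 controls. The log2 difference was 0.067 with a 95% confidence interval of −0.036 to 0.17 and did not pass the test (limma, adjusted p = 0.283). Between 1720 and 2604 fragments per library lay behind these values, so that counting alone gives an error of 1.96% to 2.41%.

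MYCN, at chr2:15940550-15947007 on the plus strand, was expressed at a level like that of MYC. It stood at 21.1, 19.5 and 19.2 FPKM in si-SCR and 18.8 and 19.3 FPKM in si-circVAMP3. Si-SCR library 1 was the highest, and the groups overlapped. The log2 difference was −0.063, with a 95% confidence interval of −0.19 to 0.067 (limma, adjusted p = 0.423). Without si-SCR replicate 1 it was −0.022. MYC over MYCN, both per length, was 0.911, 0.958 and 1.00 in si-SCR and 1.08 and 1.02 in si-circVAMP3, and the sum of both came to 40.4, 38.2 and 38.5 FPKM against 39.1 and 39.0 FPKM. Per length, both mRNAs thus stood at near equal levels in every library. The lengths used were 4584 bases for MYC and 2616 for MYCN. Fragments per library numbered 1720 to 2604 for MYC and 912 to 1474 for MYCN, so the near equality depends on the lengths.

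The genes whose profile over the 5 libraries, centred on its own mean, lay closest to that of MYC were RPF1, LDHB and CTR9, with root mean square differences of 0.0075, 0.0077 and 0.00884 log2 units, where the median over all genes was 0.114. For MYCN they were CEP164, DZIP1L and SNX4, at 0.0107, 0.0111 and 0.0119 against a median of 0.126. Such flat profiles are shared by many genes, and 5 libraries hold little to tell them apart.

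MAX, the shared partner, is encoded at chr14:65006174-65102695 on the minus strand. Its level was 5.58, 6.11 and 6.11 FPKM in si-SCR and 6.64 and 6.93 FPKM in si-circVAMP3. Both si-circVAMP3 libraries lay above all controls. The log2 difference of 0.18, with a 95% confidence interval of 0.028 to 0.33, missed the threshold (limma, adjusted p = 0.0738), and with limma voom on recovered fragments it passed it (adjusted p = 0.0476; range over the alternatives 0.0476 to 0.301). Per length, MYC and MYCN mRNA together exceeded MAX mRNA by 7.24, 6.25 and 6.29 times in si-SCR and by 5.88 and 5.63 times in si-circVAMP3. This ratio depends on the lengths used, 6257 bases for MAX, 4584 for MYC and 2616 for MYCN.

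MXI1 was the member that passed the test. It encodes a MAX partner of the MXD family that represses E-box genes, and lies at chr10:110207605-110287365 on the plus strand, where a gene without a symbol shares part of its span. Its level was 2.09, 1.74 and 1.92 FPKM in si-SCR and 1.23 and 1.03 FPKM in si-circVAMP3. Every si-circVAMP3 value lay below every control, and the mean went from 1.92 ± 0.174 FPKM (SD, n = 3) to 1.13 ± 0.145 FPKM (SD, n = 2), a ratio of 0.59. The log2 difference was −0.57, with a standard error of 0.097 and a 95% confidence interval of −0.80 to −0.33 (limma, adjusted p = 0.0075). Recovered fragments numbered 329, 257 and 283 in si-SCR and 135 and 175 in si-circVAMP3, with counting errors of 5.51% to 8.61%. The difference kept its direction in all 15 alternatives with a value for it, and without si-circVAMP3 replicate 2 it was −0.48 and no longer passed (adjusted p = 0.0646; range over the alternatives 0.00266 to 0.0646).

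MXD3, a further repressor of the family, lies at chr5:177301461-177312757 on the minus strand, and its span overlaps that of RAB24 on that strand. Whether their exons overlap, which would leave fragments there unassigned, was not checked. Its level was 5.67, 4.2 and 3.38 FPKM in si-SCR and 2.90 and 2.72 FPKM in si-circVAMP3. The controls were widely spread, with si-SCR library 1 the highest, yet the groups did not overlap. The log2 difference of −0.55 came with a 95% confidence interval of −0.97 to −0.12 and missed the threshold (limma, adjusted p = 0.0597). It passed without si-SCR replicate 3 (log2 difference −0.70, adjusted p = 0.00922) and with limma voom (adjusted p = 0.0371), over a range of 0.00922 to 0.233.

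MXD4, at chr4:2247432-2262109 on the minus strand, encodes another repressor of this kind. It was measured at 1.15, 0.914 and 0.834 FPKM in si-SCR and 0.714 and 0.783 FPKM in si-circVAMP3. Again si-SCR library 1 was the highest and the groups did not overlap. The log2 difference of −0.23 had a 95% confidence interval of −0.49 to 0.038 (limma, adjusted p = 0.169). It was −0.14 without si-SCR replicate 1 and −0.34 with limma voom, and passed in no alternative.

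MXD1, the family member best known for its induction as cells differentiate, lies at chr2:69897688-69942945 on the plus strand and shares part of its span with SNRNP27. It was the least abundant of the network in si-SCR, at 0.573, 0.63 and 0.764 FPKM. In si-circVAMP3 it was at 0.875 and 0.869 FPKM, above MXD4. Here the si-circVAMP3 libraries lay above all controls, opposite to the other MXD genes. The log2 difference was 0.25, with a 95% confidence interval of 0.018 to 0.48, and missed the threshold (limma, adjusted p = 0.0964). It was 0.42 with limma voom, 0.37 with a pseudocount of 0.1 and 0.18 with a pseudocount of 1, so its size depends on the scale at this low level. Without si-SCR replicate 3 it was 0.32 and passed (adjusted p = 0.0418; range over the alternatives 0.0418 to 0.27). Only 97 to 159 fragments per library lay behind MXD1, a counting error of 7.93% to 10.2%.

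**Figure D2:**
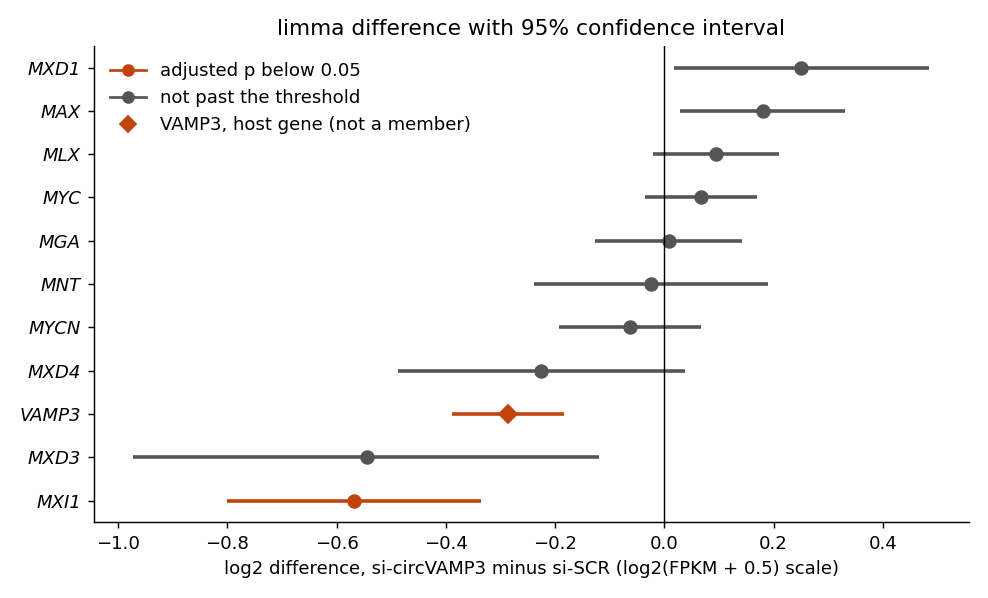
Log2 difference (si-circVAMP3 minus si-SCR, log2(FPKM + 0.5) scale) of each member and of VAMP3, with 95% confidence intervals from limma over 3 and 2 libraries. MXI1 at −0.57 is the member past the threshold; the interval of MXD3 is the widest and those of MYC and MGA lie close around 0.

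Added together, the mRNAs of MXD1, MXD3, MXD4 and MXI1 came to 9.48, 7.49 and 6.90 FPKM in si-SCR and 5.72 and 5.403 FPKM in si-circVAMP3. The si-circVAMP3 sums were below every control, by less than the controls differed among themselves. MYC plus MYCN mRNA was 4.26, 5.10 and 5.57 times this sum in si-SCR and 6.83 and 7.22 times in si-circVAMP3, groups that did not overlap either. MXD3, the largest part, held 59.9%, 56.1% and 49.0% of the sum in si-SCR and 50.7% and 50.4% in si-circVAMP3, which overlapped. The share of MXI1 was 22.03%, 23.3% and 27.8% in si-SCR and 21.6% and 19.0% in si-circVAMP3. That of MXD1 was 6.04%, 8.42% and 11.1% against 15.3% and 16.1%, and for MXI1 and MXD1 the shares did not overlap. An exact permutation test over 3 against 2 libraries has 10 arrangements and cannot give a p below 0.2 when the one-sided p is doubled for both sides. The sums and ratios are given as a description, without a test. They compare mRNA per length and depend on the gene lengths used, and the amounts of protein were not analysed here.

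**Figure D3:**
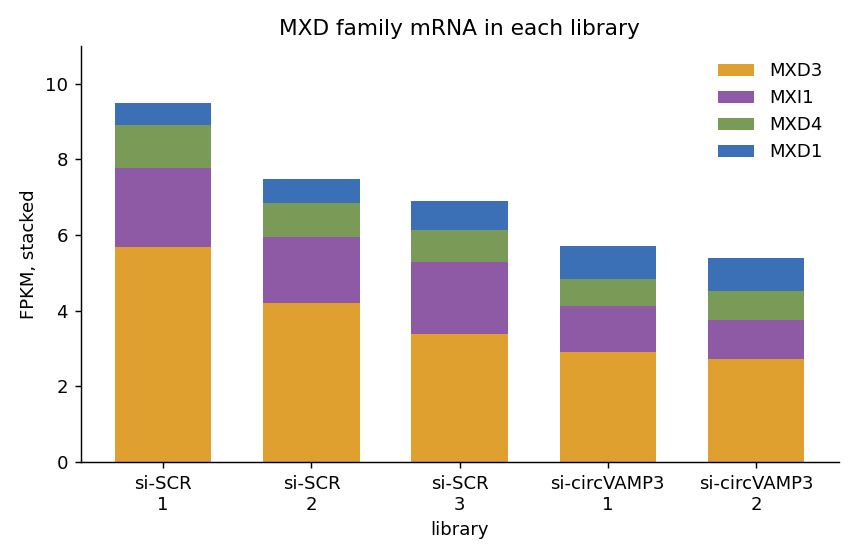
FPKM of MXD3, MXI1, MXD4 and MXD1 stacked for each library, from 0. The total ranges from 6.90 to 9.48 FPKM in si-SCR and from 5.403 to 5.72 FPKM in si-circVAMP3, with MXD3 the largest share throughout.

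MNT is the broadly expressed repressor of the network and lies at chr17:2384073-2401104 on the minus strand. It was measured at 3.003, 3.08 and 2.55 FPKM in si-SCR and 2.73 and 2.90 FPKM in si-circVAMP3. Both si-circVAMP3 values fell inside the control range. The log2 difference was −0.025 with a 95% confidence interval of −0.24 to 0.19 (limma, adjusted p = 0.858), and its sign turned to 0.004 with quantile normalization, to 0.004 without si-SCR replicate 1, to 0.019 without si-SCR replicate 2 and to 0.012 without si-circVAMP3 replicate 1.

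MLX, the MAX-like partner, was the most abundant member and lies at chr17:42567072-42573239 on the plus strand. Its level was 26.4, 27.8 and 28.6 FPKM in si-SCR and 29.8 and 29.2 FPKM in si-circVAMP3. The si-circVAMP3 libraries were just above the controls, and the log2 difference of 0.095 (95% confidence interval −0.02 to 0.21) did not pass the test (limma, adjusted p = 0.182). MGA, a very large protein that carries a T-box domain beside its MAX-pairing region, is encoded at chr15:41621134-41773081 on the plus strand. It stood at 5.43, 5.56 and 5.56 FPKM in si-SCR and 5.401 and 5.71 FPKM in si-circVAMP3. The groups overlapped, with a log2 difference of 0.009 and a 95% confidence interval of −0.13 to 0.14 (limma, adjusted p = 0.92), which became −0.002 without si-SCR replicate 1 and −0.028 without si-circVAMP3 replicate 2.

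Ranked by mean FPKM in si-SCR, the members ran from MLX through MYCN, MYC, MAX, MGA, MXD3, MNT, MXI1 and MXD4 to MXD1. Neighbours whose control values overlapped were MYCN with MYC and MGA with MXD3. In si-circVAMP3 those pairs no longer overlapped, with MYC above MYCN and MGA above MXD3, while MXD3 and MNT did. MXD1 stood above MXD4 there, at 0.875 and 0.869 against 0.714 and 0.783 FPKM. Against all genes of the table, MLX stood at percentile 88.1 of the si-SCR levels, MYCN at 83.3, MYC at 82.4, MAX at 55.3, MGA at 53.6, MXD3 at 48.3, MNT at 38.4, MXI1 at 30.4, MXD4 at 19.3 and MXD1 at 14.3. By FPKM, MLX, MYCN and MYC thus had high mRNA levels in RH4 cells, MXD3 a middling level, and MXI1, MXD4 and MXD1 lower ones. FPKM divides by gene length, from 2616 bases for MYCN to 17651 for MGA, so this order depends on the lengths used.

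The E-box that these proteins prefer reads CACGTG, the same on both strands, and it was searched in promoter windows from RefSeq (GRCh38.p14) that run from 250 bases before to 50 bases after each gene's start. Windows were found for 9 of the 10 members, and those of MNT, MXD4 and MLX held the motif, against 12.4% of the 10386 genes of the expression table with a window and 8.8% of all 27305 genes with windows. A 30-base stretch around each is printed on the strand of its gene, with the motif in capitals, because binding to it is what the members share. They lie at chr17:2401236-2401265 for MNT and chr4:2262330-2262359 for MXD4, both on the minus strand, and at chr17:42567038-42567067 for MLX on the plus strand.
MNT: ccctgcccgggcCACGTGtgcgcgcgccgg
MXD4: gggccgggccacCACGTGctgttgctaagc
MLX: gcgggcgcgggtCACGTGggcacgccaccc
These windows sit in front of 3 genes that did not pass the test, and MXI1, which did, had the motif in none of its 3 windows. A match describes letters in a window and does not show that a protein binds there.

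Among the relatives of MYC, MYCL was the other family gene with enough signal to test. MYCL mRNA was 4.33, 4.36 and 4.13 FPKM in si-SCR and 3.47 and 3.17 FPKM in si-circVAMP3. The groups did not overlap and it was called lower, with a log2 difference of −0.32 (limma, adjusted p = 0.0142). That call was lost without si-SCR replicate 2 (adjusted p = 0.0581), without si-circVAMP3 replicate 1 (0.0513) and without si-circVAMP3 replicate 2 (0.106). PVT1, a long noncoding RNA encoded beside MYC, stayed at 0.45 to 0.53 FPKM and was below the filter, and MYCNOS had no row.

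The Mondo proteins and glucose-responsive MLX targets gave the largest difference among all genes listed for the network. TXNIP, an inhibitor of glucose uptake that responds to the MLX and Mondo pair, was at 15.0, 13.8 and 14.4 FPKM in si-SCR and 36.02 and 32.8 FPKM in si-circVAMP3. The groups were far apart, with a log2 difference of 1.23 and a 95% confidence interval of 1.08 to 1.37 (limma, adjusted p = 0.000128), and it was called in all 15 alternatives. ARRDC4, a close relative of TXNIP with the same regulators, was at 4.86, 4.70 and 5.13 FPKM against 5.61 and 5.75 FPKM. Its log2 difference of 0.20 missed the threshold (limma, adjusted p = 0.052) and passed it with a filter of 1 FPKM (adjusted p = 0.0481), with a robust prior (0.0498) and without si-SCR replicate 3 (0.0284; range over the alternatives 0.0284 to 0.226). MLXIP, the Mondo protein measured, was at 9.45, 8.84 and 8.39 FPKM against 9.66 and 9.07 FPKM. It did not pass (log2 difference 0.072, limma, adjusted p = 0.448), and over the alternatives its difference ranged from 0.028 to 0.115. MLXIPL had no row. In all, 1 of the 3 genes tested was called higher and 0 lower, next to 14.4% and 15.8% of all genes. In the fits where ARRDC4 passed, 2 were called higher.

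Genes that MYC is known to activate were listed in a pair of sets, apart from those it represses. Of 58 genes of the nucleolus and cell growth 57 were tested: 22 (38.6%) were called higher and 6 (10.5%) lower, next to 14.4% and 15.8% of all genes. Their median log2 difference was 0.13 against 0.0065 over all genes, with 41 positive and 16 negative. IMP4, RRP12 and UTP20, which take part in making ribosomal RNA or assembling ribosomes, had the highest log2 differences of those called, at 0.43, 0.38 and 0.37. For IMP4 the values were 37.6, 40.9 and 39.7 FPKM in si-SCR and 52.9 and 53.5 FPKM in si-circVAMP3 (limma, adjusted p = 0.00171), with no overlap. At the other end, PLK1, a mitotic kinase, was at 50.3, 49.3 and 46.1 FPKM in si-SCR and 30.7 and 30.4 FPKM in si-circVAMP3, a log2 difference of −0.66 (limma, adjusted p = 0.000493). The nucleoside carrier SLC29A2 (−0.50) and the centriole kinase PLK4 (−0.36) followed it. PLK1, SLC29A2 and PLK4 were the 3 lowest of the 6 genes called lower, and the set was not divided by function. Without either si-circVAMP3 library, which leaves 1 sample in that group, fewer genes of the set were called each way, as over all genes. Without si-SCR replicate 2 the counts were 16 higher and 3 lower, next to 17.7% of all genes in either direction. Without si-SCR replicate 3 they were 26 and 4, next to 32.3% in either direction. Counts with a library left out, here and in the lists below, are not to be set against 14.4% and 15.8%. RRP12 was not called without either si-circVAMP3 library (adjusted p = 0.0983 and 0.0551). None of the 22 reached the fold threshold of 0.58.

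**Figure D4:**
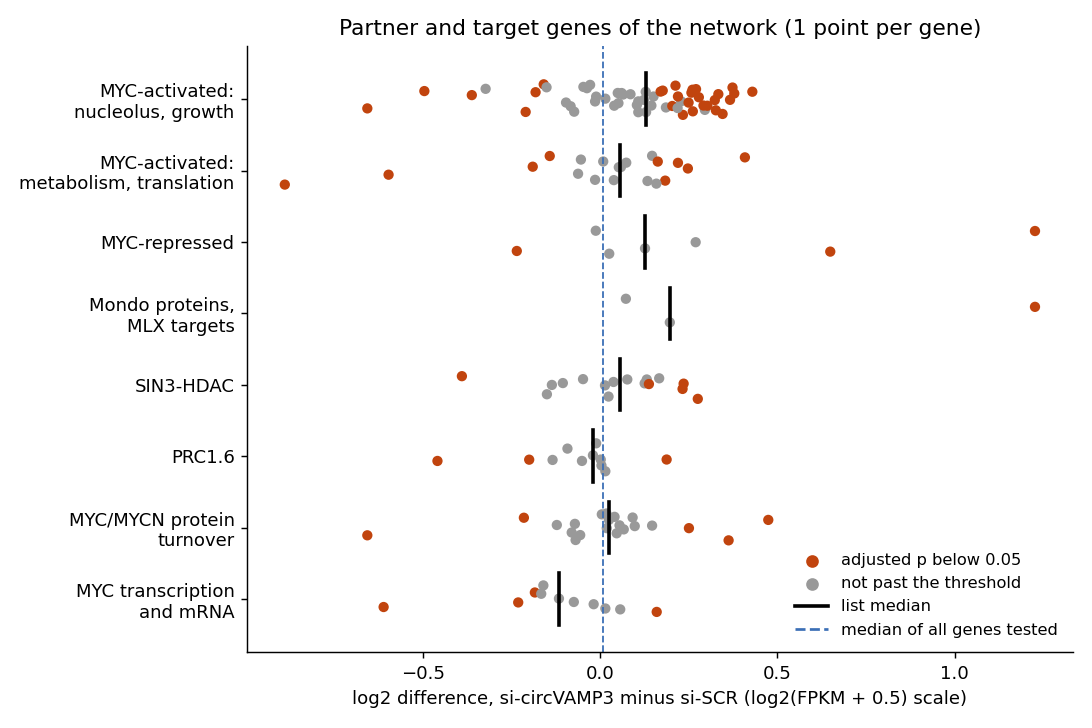
Log2 difference (si-circVAMP3 minus si-SCR, log2(FPKM + 0.5) scale) of each tested gene in 8 lists of partners, regulators and targets, coloured where the limma adjusted p is below 0.05, with list medians (black) and the median of all genes (dashed). The nucleolus and growth set has a median of 0.13, and TXNIP, at 1.23, appears in 2 of the lists.

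The second set held 20 tested genes of metabolism and translation, with 5 (25.0%) called higher and 4 (20%) lower, next to 14.4% and 15.8% of all genes, and a median log2 difference of 0.055. PTMA, a small chromatin protein long known as a MYC target, was at 246.1, 253.5 and 249.1 FPKM in si-SCR and 317.6 and 345.6 FPKM in si-circVAMP3, a log2 difference of 0.41 (limma, adjusted p = 0.00208). The nucleotide kinase NME1 (0.25) and the glycolytic enzyme PKM (0.22) were called higher as well. RPIA, an enzyme of the pentose phosphate pathway, was lowest: 19.8, 20.9 and 19.4 FPKM in si-SCR and 10.4 and 10.7 FPKM in si-circVAMP3, a log2 difference of −0.89 (limma, adjusted p = 0.000197). CCND2, which encodes cyclin D2, differed by −0.60 and was also called lower. With quantile normalization PKM was no longer called (adjusted p = 0.114, the highest over the alternatives, with 0.00666 the lowest) and 2 genes of the set were called higher, and without the limma trend 3 were. Leaving out si-circVAMP3 replicate 1 or replicate 2 left 1 gene called higher and 2 lower, and leaving out si-SCR replicate 2 left 3 higher and 2 lower; without si-SCR replicate 3, 2 were lower. NME1 lost its call without si-SCR replicate 2 (adjusted p = 0.0685) and without either si-circVAMP3 library (0.149 and 0.0649), and PKM without either si-circVAMP3 library (0.111 and 0.103).

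Of 10 genes that MYC is known to repress, 7 were above the filter, 2 were called higher, TXNIP and CDKN1A, and 1 lower, CDKN1B (28.6% and 14.3% of those 7, next to 14.4% and 15.8% of all genes), with a median log2 difference of 0.13. CDKN1A encodes the cell cycle inhibitor p21. It stood at 11.6, 11.1 and 9.77 FPKM in si-SCR and 17.7 and 16.8 FPKM in si-circVAMP3, which did not overlap, and the log2 difference was 0.65 (limma, adjusted p = 0.00225). CDKN1B, the gene of the related inhibitor p27, was at 26.0, 23.4 and 22.3 FPKM against 20.3 and 20.01 FPKM, a log2 difference of −0.24 (limma, adjusted p = 0.0414). These related inhibitors thus lay on opposite sides. The CDKN1B call was lost without the limma trend (adjusted p = 0.0667), and without si-SCR replicate 1 (adjusted p = 0.0552), si-SCR replicate 2 (0.092), si-circVAMP3 replicate 1 (0.158) or si-circVAMP3 replicate 2 (0.181).

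The E-box was frequent in front of the activated targets, which were listed as MYC targets to begin with. Of the nucleolus and growth genes with a promoter window, 25 of 47 (53.2%) held CACGTG, as did 8 of 18 (44.4%) of the metabolism and translation genes and 0 of 7 of the repressed genes. Within the nucleolus and growth set the motif was found for 10 of 18 genes called higher, 4 of 5 called lower and 10 of 23 not called, beside 1 gene that was not tested. Windows of genes named above are printed on the plus strand, which is the strand of each gene, with the motif in capitals, since they stand in front of IMP4 and UTP20, which rose, of PLK1, which fell, and of ARRDC4, which missed the threshold. They lie at chr2:130342682-130342711 for IMP4, chr12:101280083-101280112 for UTP20, chr16:23678679-23678708 for PLK1 and chr15:97960481-97960510 for ARRDC4. The window of IMP4 holds a further CACGTG, not printed, at chr2:130342900-130342929, after the start.
IMP4: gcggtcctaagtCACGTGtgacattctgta
UTP20: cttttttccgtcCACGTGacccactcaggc
PLK1: cccaggctatccCACGTGttcgggcgtccg
ARRDC4: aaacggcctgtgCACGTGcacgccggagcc
Having the motif therefore did not go with a single direction among these genes.

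The SIN3-HDAC corepressor is recruited by the MXD proteins and MNT. Of its 16 genes, 4 (25.0%) were called higher and 1 (6.2%) lower, next to 14.4% and 15.8% of all genes, with a median log2 difference of 0.056. The deacetylase gene HDAC1 went from 49.6 ± 1.94 FPKM (SD, n = 3) to 60.1 ± 0.647 FPKM (SD, n = 2), a log2 difference of 0.28. BRMS1 (0.23), SAP18 (0.23) and the histone-binding RBBP4 (0.14) were the others called higher, and BRMS1L, a paralog of BRMS1, was called lower, at −0.39. The genes of the SIN3 scaffolds were at 10.5, 11.1 and 11.4 FPKM against 11.4 and 12.7 FPKM for SIN3A and at 6.57, 6.85 and 6.45 FPKM against 7.29 and 7.71 FPKM for SIN3B, and neither was called (both were picked after their values were seen). Without si-circVAMP3 replicate 1 the adjusted p was 0.0592 for HDAC1, 0.0687 for BRMS1, 0.131 for SAP18 and 0.138 for RBBP4, and without si-circVAMP3 replicate 2 it was 0.0521, 0.0952, 0.0836 and 0.194, so 0 were called higher. Without si-SCR replicate 2, where 2 were, SAP18 was at 0.0689 and RBBP4 at 0.12, and without si-SCR replicate 1 RBBP4 was at 0.0834. RBBP4 was at 0.0856 without the limma trend.

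The Polycomb complex PRC1.6 that contains MGA had 11 genes tested, of which 1 (9.1%) was called higher and 2 (18.2%) lower, next to 14.4% and 15.8% of all genes, with a median log2 difference of −0.021. E2F6, its E2F-family DNA-binding subunit, differed by 0.19. RYBP, a subunit of variant Polycomb complexes, was at 7.25, 7.76 and 8.36 FPKM in si-SCR and 5.50 and 5.54 FPKM in si-circVAMP3, a log2 difference of −0.46 (limma, adjusted p = 0.005). The ubiquitin ligase gene RING1 differed by −0.20 and was also called lower. RYBP was called in all 15 alternatives without the fold threshold, which it did not reach. The call of E2F6 was lost without the limma trend (adjusted p = 0.0527), and without si-SCR replicate 1 (adjusted p = 0.0611), si-SCR replicate 2 (0.13), si-circVAMP3 replicate 1 (0.186) or si-circVAMP3 replicate 2 (0.163), and that of RING1 without si-SCR replicate 2 (0.0566), si-circVAMP3 replicate 1 (0.0708) or si-circVAMP3 replicate 2 (0.0992).

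Coactivators and chromatin partners of MYC formed a list of 15 tested genes with 1 (6.7%) called higher and 0 lower, next to 14.4% and 15.8% of all genes, and a median log2 difference of 0.062. The gene called was CCNT1, the cyclin of the elongation factor P-TEFb, at 9.19, 9.13 and 9.38 FPKM in si-SCR and 11.5 and 12.1 FPKM in si-circVAMP3, a log2 difference of 0.34 (limma, adjusted p = 0.00461). Without si-circVAMP3 replicate 2 its adjusted p was 0.05, the highest over the alternatives (lowest 0.00102), and 0 of the list were called; without si-SCR replicate 3 there were 2 higher and 1 lower.

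Stability of MYC and MYCN proteins is set by ubiquitin ligases, deubiquitinases and kinases, and 21 such genes were tested. Of these, 3 (14.3%) were called higher and 2 (9.5%) lower, next to 14.4% and 15.8% of all genes, with a median log2 difference of 0.024. USP36, a nucleolar deubiquitinase, was at 7.28, 7.69 and 6.81 FPKM in si-SCR and 10.2 and 10.3 FPKM in si-circVAMP3, a log2 difference of 0.47 (limma, adjusted p = 0.00316). SKP1, a core subunit of SCF ubiquitin ligases, differed by 0.36 and the kinase gene GSK3A by 0.25. PLK1, given above, and the deubiquitinase gene USP7, at −0.22, were the genes called lower. GSK3A and USP7 lost their calls without si-circVAMP3 replicate 1 (adjusted p = 0.0985 and 0.0998) and without si-circVAMP3 replicate 2 (0.0621 and 0.0728), which left 2 higher and 1 lower. PLK1, WDR5, CBX3 and TXNIP each stand in 2 of the lists, so these counts are not independent.

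Regulators of MYC transcription and mRNA had 11 genes tested, with 1 (9.1%) called higher and 3 (27.3%) lower, next to 14.4% and 15.8% of all genes, and a median log2 difference of −0.12. CTNNB1, which encodes beta-catenin, a coactivator at Wnt target genes, was at 51.4, 52.8 and 53.8 FPKM in si-SCR and 35.4 and 33.2 FPKM in si-circVAMP3. That is a log2 difference of −0.61 with no overlap (limma, adjusted p = 0.000487), and it was called in all 15 alternatives. FUBP1 and FUBP3, proteins that bind a DNA element upstream of MYC, differed by −0.23 and −0.18, and PUF60, a repressor that acts on the same element, by 0.16. The call of FUBP1 was lost without si-circVAMP3 replicate 2 (adjusted p = 0.0736; range over the alternatives 0.00342 to 0.0736) and that of FUBP3 without any 1 library other than si-SCR replicate 3 (0.0558 to 0.15). PUF60 was not called with quantile normalization (0.0559), without the limma trend (0.0678), or without si-SCR replicate 2 (0.0684), si-circVAMP3 replicate 1 (0.132) or si-circVAMP3 replicate 2 (0.143). With limma voom on recovered fragments 5 genes of the list were called lower. Without si-circVAMP3 replicate 1 the list had 0 called higher and 2 lower, without si-circVAMP3 replicate 2 it had 0 and 1, and without si-SCR replicate 2 it had 0 and 2. MYC mRNA itself, as given above, did not pass the test.

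Of 11 other E-box binding factors tested, 3 were called higher (TFAP4 at 0.34, USF2 at 0.31 and BHLHE40 at 0.30 on the log2 scale) and 3 lower (TFEB at −0.39, SREBF2 at −0.33 and CLOCK at −0.30), which is 27.3% each way next to 14.4% and 15.8% of all genes, with a median log2 difference of 0.027. TFAP4 is itself a known MYC target, USF2 a ubiquitous activator, TFEB a regulator of lysosomal genes and SREBF2 one of cholesterol synthesis. SREBF2 was the most abundant of the 6 called, at 44.5, 41.3 and 38.9 FPKM in si-SCR and 34.4 and 31.5 FPKM in si-circVAMP3 (limma, adjusted p = 0.0134). Without si-circVAMP3 replicate 1, or without si-circVAMP3 replicate 2, 0 of the list were called higher and 1 lower, and without si-SCR replicate 2 there were 1 and 2. SREBF2 lost its call without si-circVAMP3 replicate 2 (adjusted p = 0.102; range over the alternatives 0.00388 to 0.102). USF2 and CLOCK lost theirs without si-circVAMP3 replicate 1 (0.0731 and 0.0989) or replicate 2 (0.074 and 0.0559). BHLHE40 was not called without the filter on low values (0.0526), with quantile normalization (0.052) or without the limma trend (0.0631). TFAP4 was not called without si-SCR replicate 2 (0.0876), si-circVAMP3 replicate 1 (0.0995) or si-circVAMP3 replicate 2 (0.187), TFEB without si-SCR replicate 1 (0.0591), si-SCR replicate 2 (0.0829) or si-circVAMP3 replicate 1 (0.151), and BHLHE40 without any 1 library other than si-SCR replicate 3 (0.0813 to 0.246).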

How the data were processed

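Per the study's methods, the authors made stranded poly-A+ libraries, trimmed paired reads (Trimmomatic), aligned them to GRCh38 with Ensembl annotation (STAR 2.5.2b), counted fragments per gene by strand (HTSeq), removed low-count genes and deposited FPKM values computed with edgeR. A count test could not be the main test on these values. Genes with at least 0.5 FPKM in at least 2 libraries were kept (12423 of 13822), and log2(FPKM + 0.5) was fitted on group with limma 3.58.1 (trend; R 4.3.3) and Benjamini-Hochberg adjustment. The script was tested on simulated data. FPKM steps gave whole fragments within 0.02 for 99.99% of genes, after a search for each gene's length; with annotated lengths alone it was 69.05%. The library sizes they imply (18533740 to 28798387 fragments) are normalized ones. Positions are from GENCODE on GRCh38. Of 13822 rows, 39 had no symbol. Named genes were all members and, for each list, the called genes with the 3 highest and 3 lowest log2 differences, or every gene of a list of 4 or fewer. A gene that this rule names is not reported here. The members and lists were chosen with earlier results of these data known. Python 3.11.15, pandas 2.3.3 and matplotlib 3.10.9 were used. Alternatives covered pseudocount, filter, scaling, prior, replicate block, fold threshold, each library left out and, chosen after seeing the data, limma voom on recovered fragments.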

Additional observations from a re-analysis of the deposited data

How the results depend on the processing

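MXI1 was called in every alternative without a fold threshold except the fit without si-circVAMP3 replicate 2, and the directions of MYC, MYCN, MAX, MXD1, MXD3, MXD4, MXI1 and MLX did not change in any. Members called higher numbered 1 with limma voom on recovered fragments and 0 to 1 with a library left out. Members called lower numbered 2 with limma voom, 0 with the fold threshold of 0.58 on the log2(FPKM + 0.5) scale, and 0 to 2 with a library left out. MXI1 was called and past 0.58 with a pseudocount of 0.1 (−0.71), with limma voom (−0.79), without si-SCR replicate 2 (−0.62) and without si-circVAMP3 replicate 1 (−0.66). MNT turned to 0.004 with quantile normalization and ranged from −0.097 to 0.019 with a library left out, and MGA from −0.028 to 0.046. Of all genes, 1793 were called higher and 1963 lower. With the fold threshold these were 133 and 334, and with a library left out they ranged from 476 to 1982 higher and from 768 to 2027 lower. The drop was largest without si-circVAMP3 replicate 1 (481 and 810), si-circVAMP3 replicate 2 (476 and 768) and si-SCR replicate 2 (975 and 1227). Leaving out a si-circVAMP3 library leaves 1 sample, assumed to vary like the controls. Limma voom called 2023 and 2133. Deviations of same-numbered libraries from their group means had correlations of −0.148 and −0.031. With 2 si-circVAMP3 libraries these deviations mirror each other, so the values cannot show whether the replicate numbers pair the samples. With the replicate numbers as a replicate block, 1416 genes were called higher and 1634 lower. Of the members, 2 were called lower, MXD3 (limma, adjusted p = 0.0141) and MXI1. Si-SCR replicate 3 has no partner and adds nothing to the blocked difference, which for MXD3 was −0.70, as it was without that library. Under this block RBBP4 (0.0697), E2F6 (0.0657), PUF60 (0.0741), TFAP4 (0.081) and PKM (0.0542) were not called, the nucleolus and growth set had 3 called lower, and the metabolism and translation set had 3 higher and 2 lower. MXD1 and MXD4 were not tested under a filter of 1 FPKM. Depth limits MXD1 and MXD4 most, with 91 to 210 fragments per library. The causes of these changes were not tested.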
